A study of Mus musculus with 6 samples.

Results

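The genes described here are 10 long noncoding RNAs, taken by their gene symbols from a read count table of 57180 rows. They are Malat1 and Neat1, which stay in the nucleus, the RNAs Meg3, Rian, Mirg, H19 and Kcnq1ot1 of imprinted domains, and Gas5, Snhg1 and Epb41l4aos, which were grouped as hosts of small nucleolar RNAs (snoRNAs). All 10 had a row, and 9 passed the filter on low counts. H19 did not, so no statement on change includes it.

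RNA was sequenced from murine 10T1/2 cells, a mesenchymal line of fibroblast character, after stimulation with TGF-β at 5 ng per mL as a model of cancer-associated fibroblasts. The PDT group (3 libraries) received photodynamic therapy, in which extracellular vesicles loaded with the dye chlorin e6 (Ce6@D4-EV) and directed at midkine (MDK) were followed by light, and the PBS group (3 libraries) received PBS. Both groups had TGF-β, so its own effect was not measured, and vesicles, dye and light were given together. The cells are 1 line in culture, described as biological replicates without stating separate cultures or days, and p-values therefore describe how far these libraries vary.

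Libraries were made from total RNA after removal of ribosomal RNA, so RNAs without a long poly(A) tail could be counted. The PDT libraries held 88669946 to 99527847 counts and the PBS libraries 83195529 to 86558216. Fibroblast genes such as Col1a1, Col1a2, Vim and Pdgfrb were abundant in all 6, while Ptprc, Adgre1, Cd3e, Kdr, Emcn and Epcam, which define leukocytes, endothelium and epithelium, had 0 counts in each. Thy1, often used as a fibroblast marker, was below 1 CPM in every library. Cd68, a lysosomal protein used as a macrophage marker, had 1.47, 1.37 and 1.48 CPM in the PDT libraries, against 0.902, 0.831 and 0.846 CPM in the PBS libraries, with Ptprc and Adgre1 at 0, and its part in the results was not tested. Levels are CPM, counts scaled to the size of each library with TMM factors, and differences are log2 fold changes, PDT over PBS, ± SE. A gene is called where the quasi-likelihood test of edgeR gave an adjusted p under 0.05 over 17635 tested genes. The PDT libraries were not alike: for many of these RNAs replicate 3 lay closer to PBS than replicates 1 and 2 did, so each library is given. In cultured cells measured in bulk, fewer cells and less RNA per cell cannot be told apart.

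As background, Malat1 gathers in nuclear speckles, bodies rich in splicing factors, and Neat1 is the RNA scaffold on which paraspeckles assemble. Imprinted genes are expressed from the allele of 1 parent. Meg3, Rian and Mirg are maternally expressed from the Dlk1-Dio3 domain, where Rian holds snoRNAs and Mirg holds microRNAs, H19 is maternally expressed beside Igf2, and Kcnq1ot1 is a paternally expressed antisense RNA that silences neighbouring genes in cis. SnoRNA hosts carry snoRNAs in their introns, and the spliced RNA that is left over is often removed by nonsense-mediated decay during translation.

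Of the 9 tested members 6 fell (Malat1, Meg3, Rian, Mirg, Kcnq1ot1 and Snhg1), 1 rose (Epb41l4aos) and Neat1 and Gas5 were not called. Among all tested genes 36.1% were called, 17.5% lower and 18.7% higher in PDT, and among those that averaged 2 or more in log2 CPM 23.1% were lower and 27.0% higher. The median log2 fold change of the 9 was -0.62, against 0.01 over all tested genes. In 7 members the PDT and PBS ranges of CPM were separate, which also held for 49.0% of all tested genes. With offsets for transcript length and GC content 3 members were called lower and 0 higher (edgeR), with a median of -0.12, and with 1 library left out in turn 5 to 7 were lower and 0 to 1 higher. With scaling by library size only, 6 were lower and 1 higher among the members, while over all genes 4290 were called higher and 2517 lower, in place of 3294 and 3078. Together the 10 RNAs took 0.159%, 0.148% and 0.247% of the counts in PDT replicates 1, 2 and 3, against 0.289%, 0.263% and 0.297% in PBS replicates 1, 2 and 3.

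**Figure D1:**
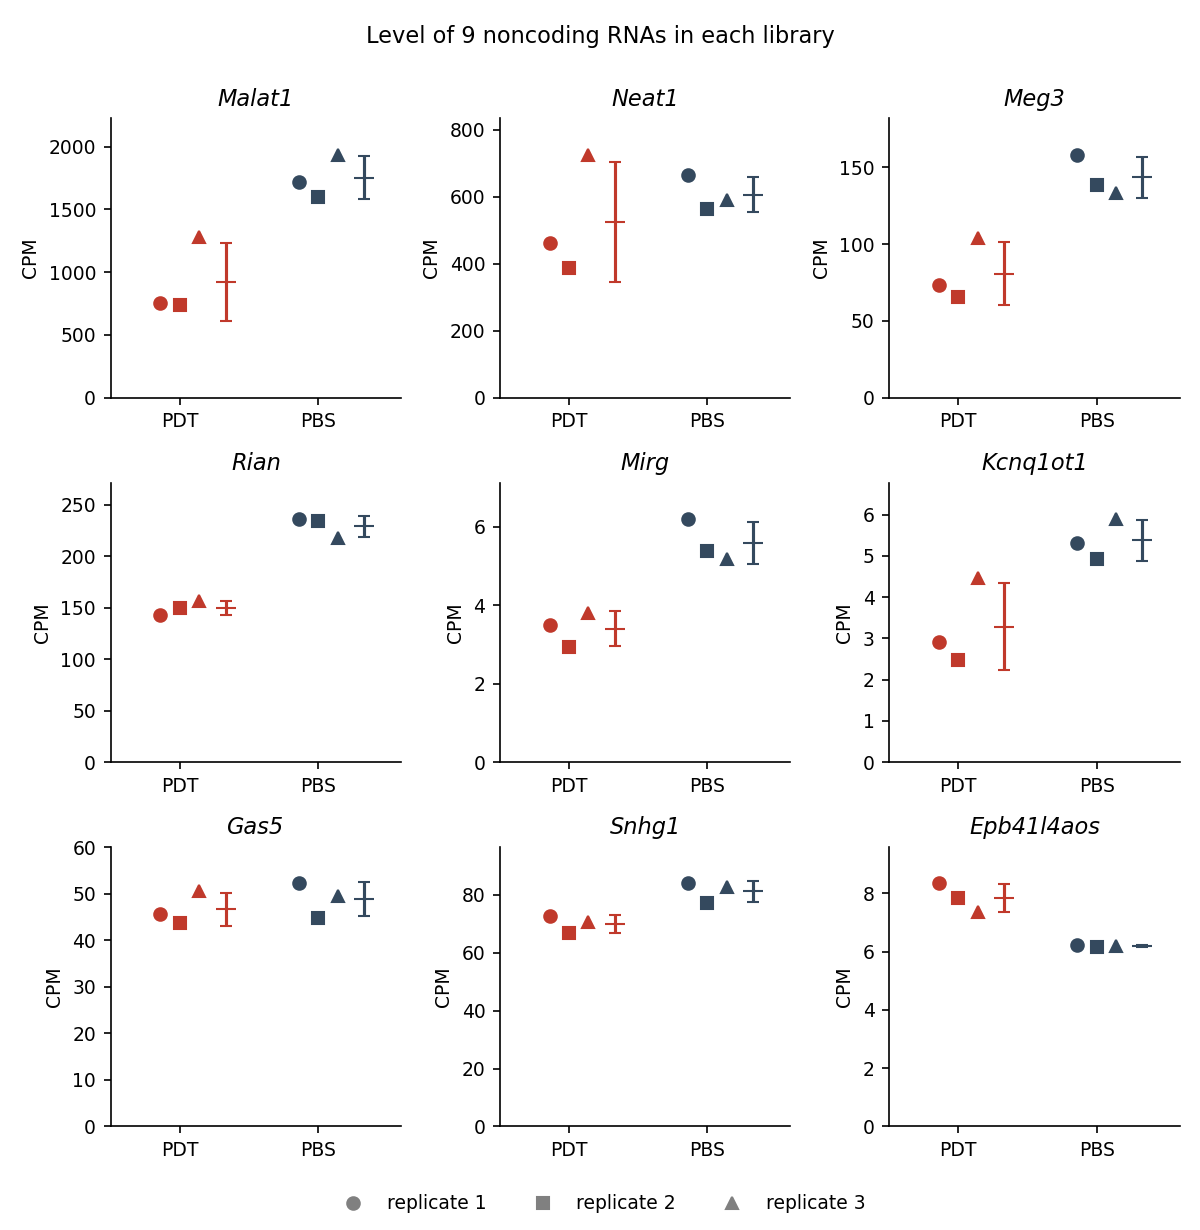
Level of each tested RNA in CPM (y axis, from 0) in the 3 PDT and 3 PBS libraries. Symbols mark replicate numbers, and the bar beside each group is its mean ± SD. Malat1, Meg3 and Kcnq1ot1 are low in PDT replicates 1 and 2 and higher in PDT replicate 3, which reached 1284 CPM of Malat1, whereas Rian lies between 142.9 and 156 CPM in all 3 PDT libraries.

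Start-site windows were available for 7 of the 10 members, taken from RefSeq on build GRCm38.p6, and 5 windows are shown, all with marked letters. These RNAs differ in how they responded: Malat1, Meg3 and Kcnq1ot1 fell with a spread between PDT libraries, Snhg1 fell slightly and Gas5 was not called. Rian and Mirg, which also fell and whose windows hold none of the marked letters, are not shown. Each window runs 5′ to 3′ on the gene's strand from 250 bases before the annotated start to 50 bases after it. The windows are chr19:5802623-5802922 on the minus strand, chr12:109540746-109541045 on the plus strand, chr7:143296498-143296797 on the minus strand, chr1:161034916-161035215 on the plus strand (the second of 2 annotated starts) and chr19:8723237-8723536 on the plus strand. Capitals mark TGACG, the core of the cAMP response element, and TATAAA, the TATA box, on either strand. Neighbouring and overlapping matches run together.
Malat1: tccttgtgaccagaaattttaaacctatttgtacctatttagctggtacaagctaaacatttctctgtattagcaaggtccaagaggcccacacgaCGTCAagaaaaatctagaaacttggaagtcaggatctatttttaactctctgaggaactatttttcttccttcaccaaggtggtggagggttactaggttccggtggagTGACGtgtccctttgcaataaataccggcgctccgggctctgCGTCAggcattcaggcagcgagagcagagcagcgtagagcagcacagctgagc
Meg3: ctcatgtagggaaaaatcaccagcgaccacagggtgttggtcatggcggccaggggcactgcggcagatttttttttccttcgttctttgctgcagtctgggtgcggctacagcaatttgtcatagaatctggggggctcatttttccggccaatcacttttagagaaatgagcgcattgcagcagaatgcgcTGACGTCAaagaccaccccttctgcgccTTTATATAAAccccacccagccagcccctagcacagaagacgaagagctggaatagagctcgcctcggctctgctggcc
Kcnq1ot1: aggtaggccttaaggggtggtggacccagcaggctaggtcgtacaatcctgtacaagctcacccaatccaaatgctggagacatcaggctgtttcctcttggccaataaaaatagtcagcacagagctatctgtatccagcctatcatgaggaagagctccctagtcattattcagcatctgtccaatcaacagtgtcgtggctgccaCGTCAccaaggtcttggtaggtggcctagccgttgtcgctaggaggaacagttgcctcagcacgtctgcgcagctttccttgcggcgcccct
Gas5: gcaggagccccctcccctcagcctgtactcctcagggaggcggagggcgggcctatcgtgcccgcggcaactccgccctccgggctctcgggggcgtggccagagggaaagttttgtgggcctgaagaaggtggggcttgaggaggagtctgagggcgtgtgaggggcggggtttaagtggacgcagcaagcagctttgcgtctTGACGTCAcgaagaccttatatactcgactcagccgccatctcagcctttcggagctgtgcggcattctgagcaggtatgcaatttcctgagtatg
Snhg1: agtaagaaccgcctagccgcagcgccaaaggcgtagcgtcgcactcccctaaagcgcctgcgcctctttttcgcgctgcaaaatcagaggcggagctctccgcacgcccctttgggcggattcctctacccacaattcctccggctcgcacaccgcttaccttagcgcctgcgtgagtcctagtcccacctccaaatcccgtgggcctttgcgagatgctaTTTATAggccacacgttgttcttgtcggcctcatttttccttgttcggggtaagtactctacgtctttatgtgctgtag

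The full cAMP response element TGACGTCA, which contains TGACG on both strands, was in the windows of Meg3 and Gas5. It was in 1.79% of 32851 RefSeq start-site windows, and TGACG was in 20.8%. Malat1 had 3 matches to TGACG, the last of them across the start itself, and Kcnq1ot1 had 1. The windows of Rian, Mirg and Snhg1 held none. TATAAA (13.6% of windows) was in those of Meg3 and Snhg1. Of the other letters searched, the CCAAT box (CCAAT, 37.4%) was in Meg3, Mirg and Kcnq1ot1, the antioxidant response element (TGACNNNGC, 12.4%) was in Kcnq1ot1, and the AP-1 site (TGANTCA, 7.81%) was in no member's window. The Gas5 window begins its transcript with a C and a run of 5 pyrimidines, as 2.51% of windows do with a run of at least 5. Such a start resembles the terminal oligopyrimidine tract of ribosomal protein mRNAs, and the run at the Snhg1 start was 3 bases long. All searches covered both strands, and in Kcnq1ot1 the antioxidant element overlaps TGACG. The second annotated start of Meg3 and the first of Gas5 held none of these letters. The matches describe letters only.

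Malat1 had the highest level of the 10 and a log2 fold change below those of the other 8 tested, although its interval overlapped those of Neat1, Meg3, Rian, Mirg and Kcnq1ot1, and with length and GC offsets Mirg was lower (-0.77, against -0.70 for Malat1), as was Meg3 without PBS replicate 3 (-0.88, against -0.84 for Malat1). It had 754.6, 737.4 and 1284 CPM in PDT replicates 1, 2 and 3, against 1720.0, 1600.4 and 1938 CPM in PBS replicates 1, 2 and 3. All 3 PDT libraries lay below all PBS libraries, but replicate 3 kept 73.3% of the PBS mean, where replicates 1 and 2 had 43.1% and 42.1%. The log2 fold change was -0.92 ± 0.19, or 1.89-fold lower in PDT (adjusted p = 0.00372, 95% interval -1.34 to -0.51). Without PDT replicate 3 it was -1.24 ± 0.07 (adjusted p = 1.9e-06), and over the 15 alternatives the adjusted p ranged from 1.9e-06 to 0.0225. The spread was wide in PDT, with a coefficient of variation of 33.6%, against 9.76% in PBS.

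Neat1, which lies next to Malat1 on the same chromosome, was not called. It had 461.5, 386.6 and 726.5 CPM in PDT replicates 1, 2 and 3, against 664.9, 564.7 and 590.3 CPM in PBS replicates 1, 2 and 3. PDT replicates 1 and 2 lay below every PBS library and PDT replicate 3 lay above every one, so the groups overlapped. The difference was -0.21 ± 0.19 with a 95% interval of -0.63 to 0.21 (adjusted p = 0.427). Without PDT replicate 3 it was -0.52 ± 0.08 and passed the test (adjusted p = 0.000881), and this was the only one of 15 alternatives in which it did (range of adjusted p 0.000881 to 0.89). The deposited row joins the short and long isoforms of Neat1, which were therefore not separated.

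Both RNAs were higher in PDT replicate 3 than in replicates 1 and 2, each by 0.78 on the log2 scale, and the ratio of the pair was set apart from PBS in all 3 PDT libraries. Malat1 reads were 1.63, 1.91 and 1.77 times those of Neat1 in PDT replicates 1, 2 and 3, and 2.59, 2.83 and 3.28 times in PBS replicates 1, 2 and 3. The ratio was lower in every PDT library than in any PBS library, with a difference of -0.71 in mean log2 ratio. A two-sided exact permutation test gave p = 0.1, the smallest that 3 against 3 libraries allow, and 0.2 after Benjamini-Hochberg adjustment over the 4 ratios tested. The coding gene on the Neat1 side of the pair was not called: Frmd8 had 71.0 ± 4.37 CPM in PDT and 64.2 ± 2.45 CPM in PBS (SD, n = 3 each; log2 fold change 0.15 ± 0.05, edgeR adjusted p = 0.0537).

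**Figure D2:**
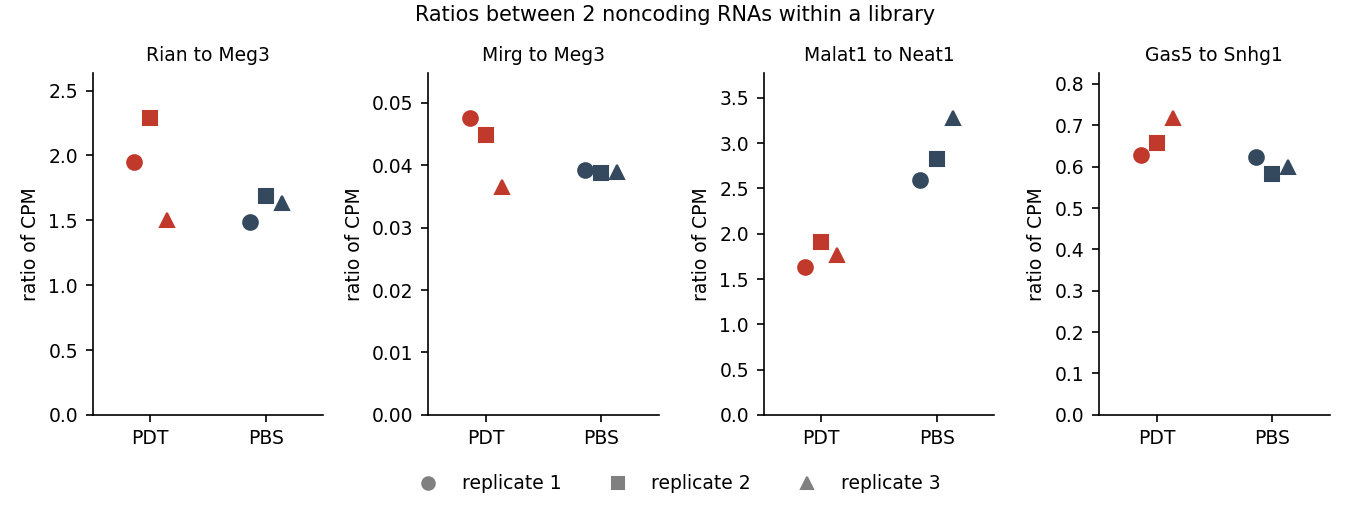
Ratio of CPM between 2 RNAs in the same library (y axis, from 0) in the PDT and PBS libraries, with symbols for replicate numbers. The ratio of Malat1 to Neat1 is 1.63 to 1.91 in PDT and 2.59 to 3.28 in PBS, while the ratio of Rian to Meg3 in PDT replicate 3 (1.50) falls within the PBS range.

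The 3 RNAs of the Dlk1-Dio3 domain all fell, but with different spread between PDT libraries. Meg3 had 73.5, 65.3 and 103.9 CPM in PDT replicates 1, 2 and 3, against 158.3, 138.8 and 133.2 CPM in PBS replicates 1, 2 and 3. Replicate 3 was again the highest of the PDT libraries, and no PDT library reached the PBS range. The log2 fold change was -0.83 ± 0.15 (adjusted p = 0.0018), and -1.05 ± 0.08 without PDT replicate 3.

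Rian had 142.9, 149.6 and 156.1 CPM in PDT replicates 1, 2 and 3, against 236.3, 233.9 and 217.3 CPM in PBS replicates 1, 2 and 3. The PDT libraries lay close together, with a coefficient of variation of 4.41% in PDT and 4.51% in PBS, where Meg3 had 25.2% in PDT and 9.19% in PBS. The log2 fold change was -0.62 ± 0.05 (adjusted p = 1.1e-05, the lowest of the 9 members). This call ended with offsets for transcript length and GC content, where the value was -0.12 ± 0.06 and adjusted p = 0.158, the highest of its 15 alternatives, whose lowest was 1.52e-33 by DESeq2. The Rian transcript used for the offsets had 35.8% GC, the lowest of the 10.

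Mirg was far lower, with 3.50, 2.92 and 3.80 CPM in PDT replicates 1, 2 and 3, against 6.20, 5.39 and 5.18 CPM in PBS replicates 1, 2 and 3. The groups did not overlap, and the log2 fold change was -0.72 ± 0.13 (adjusted p = 0.00215). It was called in all 15 alternatives, with values of -0.81 to -0.62. The 14 microRNA hairpins that lie within Meg3, Rian and Mirg had rows of their own with at most 5 counts in any library, and 0 of them were tested, so these libraries give no level for the microRNAs.

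Relative to Meg3, the other RNAs of the domain were not shown to change. The ratio of Rian to Meg3 was 1.95, 2.29 and 1.50 in PDT replicates 1, 2 and 3, against 1.49, 1.69 and 1.63 in PBS replicates 1, 2 and 3 (exact permutation p = 0.3, two-sided). PDT replicates 1 and 2 lay above the PBS range and replicate 3 lay within it. The ratio of Mirg to Meg3 was 0.0476, 0.0448 and 0.0365 in PDT replicates 1, 2 and 3, against 0.0392, 0.0388 and 0.0389 in PBS replicates 1, 2 and 3 (exact permutation p = 0.4, two-sided). The adjusted value over the 4 ratios was 0.4 for both. Dlk1, the paternally expressed coding gene at the other end of the domain from Dio3, had 0 counts in all 6 libraries, and Rtl1, which overlaps the annotated spans of Meg3 and Rian, was below 1 CPM in each and not called.

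Kcnq1ot1 had 2.91, 2.47 and 4.47 CPM in PDT replicates 1, 2 and 3, against 5.32, 4.91 and 5.90 CPM in PBS replicates 1, 2 and 3. PDT replicate 3 was the closest to PBS, at 83.2% of the PBS mean, where replicates 1 and 2 had 54.0% and 45.9%. The log2 fold change was -0.71 ± 0.20 (adjusted p = 0.02). It was called in 9 of 15 alternatives (adjusted p from 0.000409 to 0.307) and not with length and GC offsets (-0.21 ± 0.14, adjusted p = 0.307), without the low-count filter, or without PDT replicate 1, PDT replicate 2, PBS replicate 1 or PBS replicate 3. Without PDT replicate 3 it was -1.01 ± 0.14. Kcnq1ot1 runs antisense to Kcnq1, whose own row held 0 counts in each PDT library and at most 5 in a PBS library, and the use of strand in counting is not given in the sources used here.

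Of the coding genes in the 3 imprinted domains 7 of 15 could be tested. Of these 2 (28.6%) were called higher and 0 lower, against 18.7% and 17.5% of all tested genes. The split was 4 and 0 with scaling by library size only, and 0 and 0 with length and GC offsets. Both called genes are from the Kcnq1 domain. The tetraspanin gene Cd81 had 439.8, 436.8 and 392.4 CPM in PDT replicates 1, 2 and 3, against 368, 370.5 and 355.4 CPM in PBS replicates 1, 2 and 3 (0.21 ± 0.05, edgeR adjusted p = 0.00672). The histone chaperone gene Nap1l4 was at 0.15 ± 0.03 (edgeR adjusted p = 0.00664). Cdkn1c and Phlda2, growth-restraining genes of the domain, had 0 counts in all 6 libraries. Airn, a noncoding RNA antisense to Igf2r, was the only called gene of 3 tested in the list of other imprinted noncoding RNAs. It had 4.40, 4.22 and 5.24 CPM in PDT replicates 1, 2 and 3, against 7.73, 7.01 and 6.88 CPM in PBS replicates 1, 2 and 3 (-0.64 ± 0.11, edgeR adjusted p = 0.00165), while Igf2r itself was at -0.02 ± 0.03.

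H19, which is abundant in many embryonic tissues, was near or below detection. It had 11 counts in PBS replicate 2 and 0 counts in the other 5 libraries. Where a library had none, a true level of as many as 3 counts is possible, or 0.0298 to 0.0334 CPM in PDT and 0.0352 to 0.0368 CPM in PBS, for counting error only. Igf2, the coding neighbour of H19, had 26 counts in the same library, PBS replicate 2, and 2 counts in PDT replicate 3, with 0 in the others. No difference between the groups was detectable at this level.

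Of the members grouped as snoRNA hosts, Snhg1 and Gas5 moved little and Epb41l4aos rose. Snhg1 had 72.7, 66.6 and 70.5 CPM in PDT replicates 1, 2 and 3, against 83.9, 77.0 and 82.5 CPM in PBS replicates 1, 2 and 3. The groups did not overlap, and PDT replicate 3 lay between the other PDT libraries. The log2 fold change was -0.21 ± 0.05, or 1.16-fold lower in PDT (adjusted p = 0.00708). With length and GC offsets it was -0.05 ± 0.05 and no longer called (adjusted p = 0.427, the highest of 15 alternatives, of which 14 kept the call).

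Gas5 had 45.6, 43.7 and 50.6 CPM in PDT replicates 1, 2 and 3, against 52.3, 44.9 and 49.6 CPM in PBS replicates 1, 2 and 3. The groups overlapped and the gene was not called (-0.07 ± 0.07, adjusted p = 0.492) in the main comparison or in any of 15 alternatives. Its 95% interval, -0.22 to 0.09, does not include the values of Malat1, Meg3, Rian, Mirg or Kcnq1ot1. Gas5 overlaps Zbtb37 in the RefSeq annotation, and without the strand setting of the counting its counts are uncertain to that extent. Zbtb37 fell (-0.31 ± 0.09, edgeR adjusted p = 0.0196). The ratio of Gas5 to Snhg1 was 0.628, 0.656 and 0.718 in PDT replicates 1, 2 and 3, against 0.623, 0.583 and 0.600 in PBS replicates 1, 2 and 3 (exact permutation p = 0.1, two-sided, the smallest possible, and 0.2 adjusted).

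Epb41l4aos was the only member that rose. It had 8.34, 7.84 and 7.37 CPM in PDT replicates 1, 2 and 3, against 6.23, 6.15 and 6.19 CPM in PBS replicates 1, 2 and 3. Every PDT library lay above every PBS library, and PDT replicate 3 was again the closest to PBS. The log2 fold change was 0.34 ± 0.09 (adjusted p = 0.0115). It was not called without PDT replicate 1 (0.29 ± 0.10, adjusted p = 0.0662) or with length and GC offsets (0.14 ± 0.09, adjusted p = 0.275), and adjusted p ranged from 0.00507 to 0.275 over the alternatives. Epb41l4a, the coding gene beside it, had under 0.2 CPM in every library.

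Among 15 other tested noncoding snoRNA hosts 4 (26.7%) rose and 1 (6.67%) fell, with a median of 0.09 (all tested genes: 18.7% and 17.5%). The count of higher genes was 2 without PDT replicate 1, PDT replicate 2 or PBS replicate 2, and 2 rose and 2 fell with length and GC offsets. Snhg17 had 52.6, 49.96 and 60.1 CPM in PDT replicates 1, 2 and 3, against 47.9, 42.7 and 40.9 CPM in PBS replicates 1, 2 and 3 (0.31 ± 0.08, edgeR adjusted p = 0.0126). Snhg3, Snhg8 and Snhg20 rose by 0.36 ± 0.09, 0.24 ± 0.06 and 0.48 ± 0.14, and Snhg5 was lower by a small margin (-0.15 ± 0.05, edgeR adjusted p = 0.0465). Snhg5 lost its call with scaling by library size only, with the replicate block, without the low-count filter, and without any 1 library other than PDT replicate 2. The 147 rows of mature snoRNAs and related small RNAs do not show the products of these hosts, since 21 of them passed the filter and 0 were called (edgeR; 0 with length and GC offsets also). Together these rows took at most 0.000989% of the counts of a library.

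The proteins that bind snoRNAs or assemble their particles had 10 of 16 genes (62.5%) higher and 0 lower, with a median of 0.17. Among all tested genes 18.7% were higher and 17.5% lower, and among those averaging 2 or more in log2 CPM 27.0% and 23.1%. Nhp2, a core protein of H/ACA snoRNAs, had 54.6, 52.0 and 46.5 CPM in PDT replicates 1, 2 and 3, against 32.3, 33.7 and 36.7 CPM in PBS replicates 1, 2 and 3 (0.58 ± 0.07, edgeR adjusted p = 0.000209). Nolc1, Nop10 and fibrillarin (Fbl), the methyltransferase of C/D snoRNAs, were at 0.36, 0.29 and 0.22. Without PDT replicate 1 the count of higher genes was 6. Of 15 factors of nonsense-mediated decay 3 fell and 0 rose, with a median of 0.00. Upf2, a core factor, had 24.5, 24.7 and 28.7 CPM in PDT replicates 1, 2 and 3, against 43.2, 43.3 and 46.9 CPM in PBS replicates 1, 2 and 3 (-0.78 ± 0.07, edgeR adjusted p = 3.06e-05). The exonuclease Xrn1 was at -0.34 ± 0.06 and the endonuclease Smg6 at -0.15 ± 0.05. The split was 4 higher and 2 lower with scaling by library size only, 2 higher and 5 lower without PDT replicate 3, and 2 and 2 without PBS replicate 1.

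The genes of nuclear speckle proteins, proteins of the bodies that hold Malat1, mostly fell. Of 22, 16 (72.7%) fell and 1 (4.55%) rose, with a median of -0.25 (2 higher and 11 lower with length and GC offsets; 9 lower without the low-count filter; 10 lower without PDT replicate 1, PDT replicate 2 or PBS replicate 1). Among all tested genes 17.5% fell and 18.7% rose, and among those averaging 2 or more in log2 CPM 23.1% and 27.0%. The kinase gene Clk1, which regulates splicing factors, had 69.7, 67.3 and 85.7 CPM in PDT replicates 1, 2 and 3, against 107.9, 101.4 and 108.6 CPM in PBS replicates 1, 2 and 3 (-0.51 ± 0.08, edgeR adjusted p = 0.00101). Sf3b1, a subunit of the U2 particle, was at -0.37 ± 0.04 and varied little between PDT libraries, with 302.4, 288.7 and 306.3 CPM in PDT replicates 1, 2 and 3. The splicing regulator Tra2a was at -0.28 ± 0.04, and Rnps1, a splicing activator, was the gene that rose (0.29 ± 0.04). The median change of the list was -0.31, -0.31 and -0.11 in PDT replicates 1, 2 and 3, so the third library was again the closest to PBS.

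Of 28 paraspeckle protein genes 6 (21.4%) fell and 1 (3.57%) rose, with a median of -0.03. Of all tested genes 17.5% fell and 18.7% rose, and of those averaging 2 or more in log2 CPM 23.1% and 27.0%. The core proteins that bind Neat1 were not called: Sfpq was at -0.06 ± 0.04 and Nono at 0.04 ± 0.04 (edgeR adjusted p = 0.337 and 0.501). Srsf10 had 112.5, 116.2 and 128.4 CPM in PDT replicates 1, 2 and 3, against 161.2, 160.0 and 160.6 CPM in PBS replicates 1, 2 and 3 (-0.43 ± 0.05, edgeR adjusted p = 0.000148). Rbm4b was at -0.51 ± 0.06, and Hnrnpr and Ewsr1 at -0.26 and -0.20. With length and GC offsets 8 of the 28 were called higher and 5 lower, and the count of higher genes was 0 without PDT replicate 1, PBS replicate 1 or PBS replicate 2 and 2 without PBS replicate 3.

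**Figure D3:**
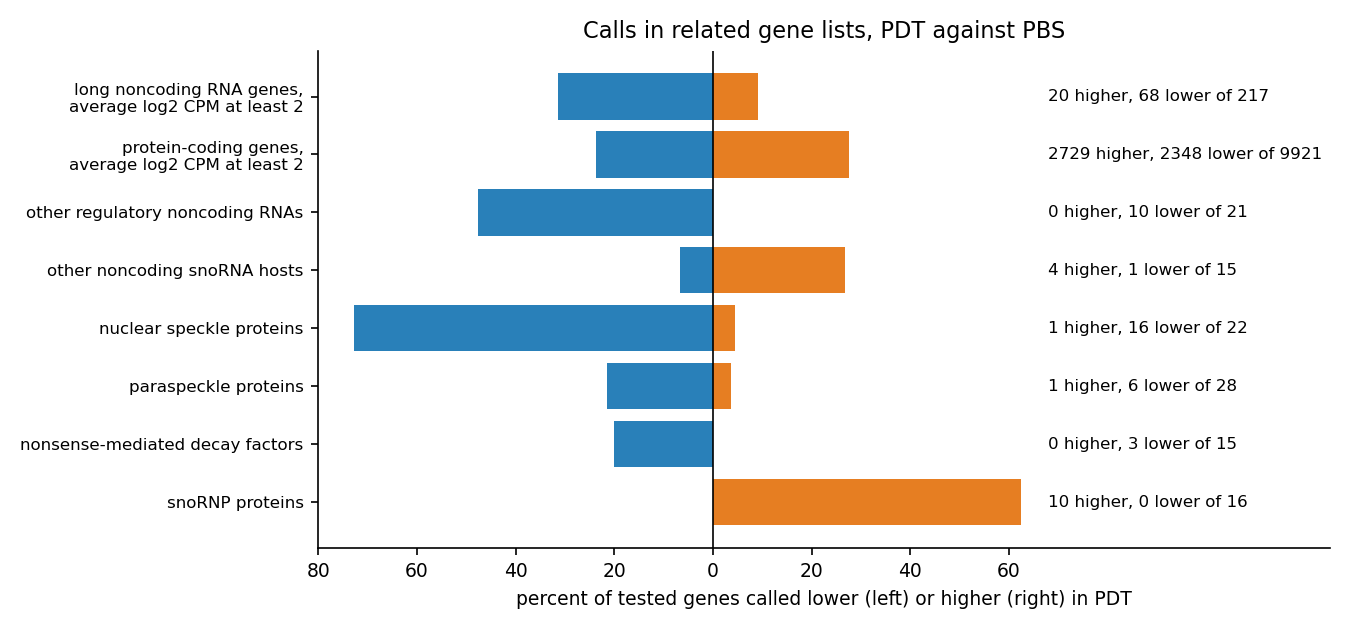
Percent of tested genes called lower (bars to the left) or higher (bars to the right) in PDT against PBS, with the counts at the right. The first row takes genes of average log2 CPM 2 or more with symbols of long noncoding RNA genes. It includes the members and some protein-coding genes that share such symbols. Of 22 nuclear speckle protein genes 16 were lower, and of 16 snoRNP protein genes 10 were higher. Among protein-coding genes of average log2 CPM 2 or more 23.7% were lower and 27.5% higher.

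Of 21 tested members of a list of other regulatory noncoding RNAs, 10 (47.6%) fell, 0 rose and 11 were not called (edgeR), with a median of -0.33 (8 lower and 1 higher of 17 with length and GC offsets). Among all tested genes 17.5% fell and 18.7% rose. Genes with symbols of long noncoding RNA genes that averaged 2 or more in log2 CPM had 31.3% lower and 9.22% higher. By median the change of the list was -0.39, -0.40 and -0.08 in PDT replicates 1, 2 and 3. Dnm3os, a host of the microRNAs miR-199a and miR-214, had 18.7, 18.8 and 24.9 CPM in PDT replicates 1, 2 and 3, against 76.4, 71.8 and 76.0 CPM in PBS replicates 1, 2 and 3 (-1.84 ± 0.10, edgeR adjusted p = 1.18e-06). Morrbid, a regulator of Bcl2l11, was at -0.52 ± 0.05, Oip5os1 at -0.47 ± 0.05 and Mir22hg at -0.64 ± 0.09. Chosen after their values were seen, Norad shows the other end of the list (0.02 ± 0.05, edgeR adjusted p = 0.779) and Xist, the RNA that coats the inactive X chromosome, resembles Malat1 in order, with 820.8, 807.0 and 1078 CPM in PDT replicates 1, 2 and 3, against 1425, 1331 and 1446 CPM in PBS replicates 1, 2 and 3 (-0.63 ± 0.10, edgeR adjusted p = 0.000832).

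Across the class, 217 genes with symbols of long noncoding RNA genes in GENCODE M21, the members included, averaged 2 or more on the log2 CPM scale. Matching was by symbol only, so protein-coding genes such as Cct6a, Ifi30 and Zfp469 were among the 217 and were not removed. Of the 217, 68 (31.3%) were called lower and 20 (9.22%) higher, with a median of -0.14. Of 9921 protein-coding genes at that level 2348 (23.7%) were lower and 2729 (27.5%) higher, with a median of 0.03. The split for long noncoding RNA genes was 66 lower and 17 higher with length and GC offsets and 59 lower and 24 higher with scaling by library size only. Of the members 66.7% were lower, with the median of -0.62 given above, and whether they differ from the class was not tested.

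The PDT libraries differed most for 4 of these RNAs. In PDT replicate 3 Malat1, Neat1, Kcnq1ot1 and Meg3 were above the mean of replicates 1 and 2 by 0.78, 0.78, 0.74 and 0.59 on the log2 scale. These differences lie at the 99.7, 99.7, 99.6 and 99.3 percentiles of all genes that averaged 2 or more in log2 CPM, whose median was -0.02. Mirg and Gas5 followed with 0.25 and 0.18, and Rian, Snhg1 and Epb41l4aos were at 0.09, 0.02 and -0.13. Over the 217 long noncoding RNA genes at that level the median of this difference was 0.08, and over protein-coding genes -0.02. PDT replicate 3 also had the most detected genes, with 24337, against 23284 and 23557 in PDT replicates 1 and 2 and 23534 to 23849 in PBS. In counts over all genes it differed more from the other PDT libraries (chi-square per degree of freedom of 22.6 and 26.1) than those did from each other (12.4), and less than from any PBS library (at least 144). No label sets this library apart, and the source of its difference was not tested.

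**Figure D4:**
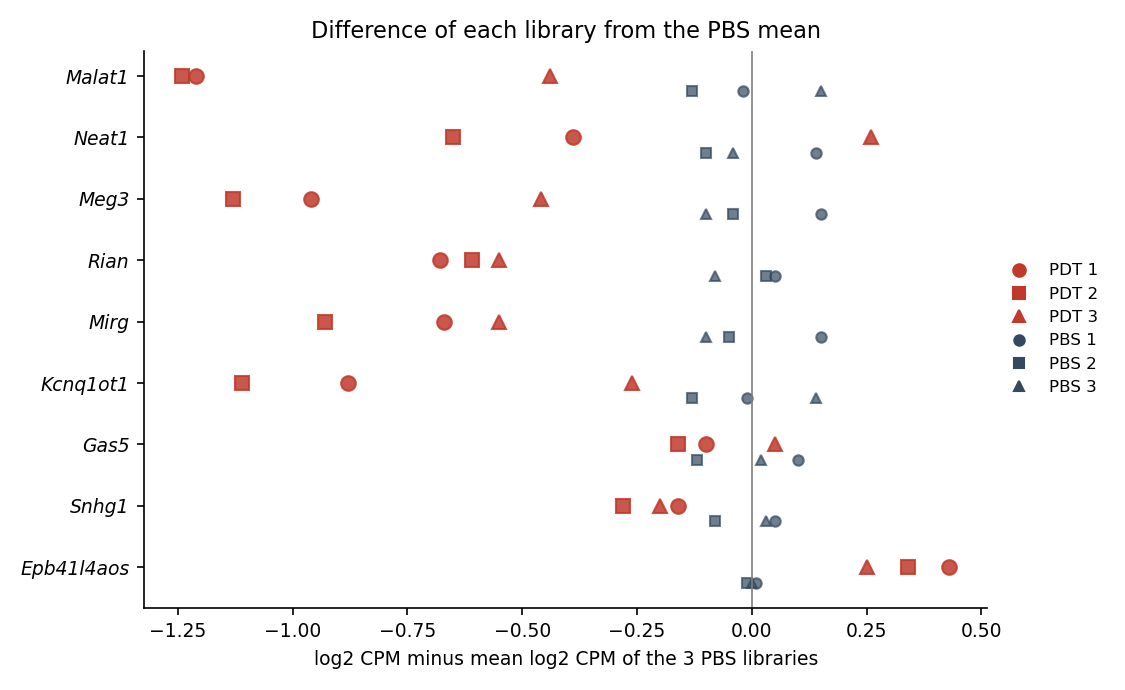
Difference of each library from the mean of the 3 PBS libraries, in log2 CPM (x axis), for the 9 tested RNAs (rows), with PDT libraries as large and PBS libraries as small symbols. Malat1 is at -1.21, -1.24 and -0.44 in PDT replicates 1, 2 and 3, and Rian at -0.68, -0.61 and -0.55.

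**Figure D5:**
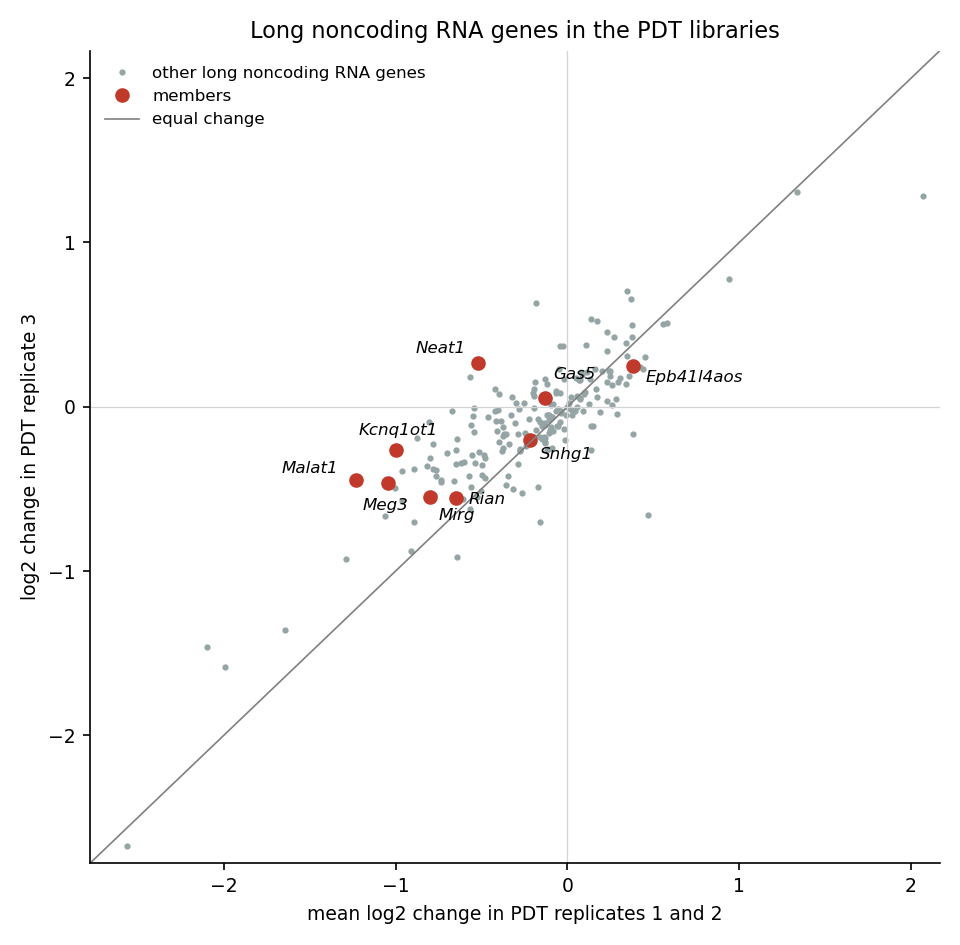
Log2 difference from the PBS mean in PDT replicate 3 (y axis) against the mean of PDT replicates 1 and 2 (x axis). Points are 217 genes with symbols of long noncoding RNA genes, some of them protein-coding, with the 9 tested RNAs in red. Malat1, Meg3, Kcnq1ot1 and Neat1 lie above the line of equal change, and Neat1 lies above 0 on the y axis, at 0.26.

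Levels of different RNAs were compared per length, as CPM per kb of the longest GENCODE M21 transcript (mean ± SD, n = 3 each). Malat1 had the highest level, 133 ± 44.5 CPM per kb in PDT and 251 ± 24.5 in PBS. Snhg1, Neat1 and Rian followed in PBS with 29.7 ± 1.35, 29.2 ± 2.51 and 28.3 ± 1.28, which at these lengths did not differ beyond their spread. In PDT Snhg1 had 25.6 ± 1.13 and Neat1 25.3 ± 8.60 CPM per kb, while Rian with 18.5 ± 0.815 stood beside Gas5 with 18.3 ± 1.40 and Epb41l4aos with 18.3 ± 1.12, within the spread of each pair. In PBS Gas5 had 19.1 ± 1.46 and Epb41l4aos 14.4 ± 0.0991 CPM per kb. Meg3 had 5.56 ± 1.40 CPM per kb in PDT and 9.86 ± 0.906 in PBS, and Mirg 0.891 ± 0.116 in PDT and 1.46 ± 0.14 in PBS. Kcnq1ot1, with an annotated length of 93092 nt, was the lowest of the 9 at 0.0353 ± 0.0113 CPM per kb in PDT and 0.0578 ± 0.00529 in PBS. For Gas5 and Snhg1 the longest transcript keeps introns, so their per-length levels are too low if the spliced form prevails. The Neat1 row joins its short and long isoforms, but the length used was 20771 nt. Its per-length level is too low if the short isoform prevails, and its place among these RNAs depends on that. For Meg3 the length used was 14548 nt, and the same holds if a shorter form prevails.

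Of 9 tested chromosomal neighbours of the members, 3 (33.3%) fell and 2 (22.2%) rose, against 17.5% and 18.7% of all tested genes. The split was 1 and 1 without PDT replicate 1, PDT replicate 2 or PBS replicate 1, 2 lower and 1 higher without PBS replicate 2, 2 lower and 3 higher without PDT replicate 3, and 4 lower and 0 higher with length and GC offsets. Ltbp3, a TGF-β binding protein gene near Malat1, had 196.6, 203.7 and 193.9 CPM in PDT replicates 1, 2 and 3, against 260.8, 257.8 and 238.9 CPM in PBS replicates 1, 2 and 3 (-0.35 ± 0.04, edgeR adjusted p = 0.000229). Slc25a45 was at -0.33 ± 0.11 (edgeR adjusted p = 0.0394). Beside Snhg1, the ribosome assembly factor gene Wdr74 was at 0.15 ± 0.05 and the amino acid transporter gene Slc3a2 at -0.13 ± 0.05 (edgeR adjusted p = 0.0311 and 0.0539). Mrpl23, a mitochondrial ribosomal protein gene near H19, was at 0.36 ± 0.07 (edgeR adjusted p = 0.00398). Of 14 tested imprinted coding genes elsewhere in the genome 3 (21.4%) fell and 2 (14.3%) rose, against 17.5% and 18.7% of all tested genes. Among the called genes were Grb10, an adaptor of growth factor receptors, at -0.37 and Impact, a regulator of translation, at 0.37. Without PDT replicate 2, PDT replicate 3, PBS replicate 2 or PBS replicate 3, 1 of the 14 rose, and without PBS replicate 2, 2 fell.

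The genes whose log2 CPM followed each RNA most closely over the 6 libraries were taken from 10352 genes by Pearson's r, a description in which all points share the same libraries and group difference. For Malat1 they were Rbbp6, Bod1l and Gcc2 (r = 0.998 each). Gcc2 had 15.9, 15.2 and 26.8 CPM in PDT replicates 1, 2 and 3, against 32.6, 31.5 and 37.1 CPM in PBS replicates 1, 2 and 3, so it repeated the intermediate level of PDT replicate 3. For Neat1 they were Zc3h6, Leng8 and Rsrp1 (0.990 to 0.992), of which Leng8 had 64.8, 58.2 and 88.7 CPM in PDT replicates 1, 2 and 3, against 85.8, 74.3 and 81.0 CPM in PBS replicates 1, 2 and 3. Gmip, Med13l and Gnaq followed Meg3 (0.999 each). Fstl1, Rnf145 and Lama5 followed Rian (0.998 to 0.999), and Lama5, a laminin chain, had 90.8, 91.9 and 94.1 CPM in PDT replicates 1, 2 and 3, against 133.3, 131.1 and 122.4 CPM in PBS replicates 1, 2 and 3. Zscan26, Zfp820 and Tgfbr1, a TGF-β receptor, followed Kcnq1ot1 (0.995 to 0.999). Tlk2 and Bmp1 followed Mirg (0.996 to 0.997), Dlx5, Slx4 and Slc9a5 followed Gas5 (0.986 to 0.992), Kank1 and Mcf2l followed Snhg1 (0.988 to 0.996) and Cks1b, Bzw2 and Dnase2a followed Epb41l4aos (0.997 to 0.999).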

How the data were processed

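The authors deposited unnormalised read counts, in whole numbers, for 1 row per gene symbol. Per the labels' protocols, ribosomal RNA was removed from total RNA before directional libraries were built. The submitters' processing notes name STAR 2.7.11b, cutadapt 4.6 and the build GRCm39. How reads were assigned to genes (counter, annotation, strand, reads with several matches) is not given in the sources used here, so counts of overlapping or antisense genes are uncertain.

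From these counts, filterByExpr at its defaults kept 17635 of 57180 rows (29921 had any count, and 0 rows named no gene). Libraries were scaled with TMM and PDT was compared with PBS in edgeR 4.0.16 (R 4.3.3), by its quasi-likelihood test with group as the only term, with Benjamini-Hochberg adjustment over all tested genes and a threshold of 0.05. The SE is the size of the log2 fold change divided by the square root of F. Log2 CPM used a prior count of 2, and the common biological coefficient of variation was 10%. Totals were 83195529 to 99527847 counts per library, and limits from 0 counts cover counting error only.

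Alternatives were DESeq2 1.42.0, limma-voom (limma 3.58.1), scaling by RLE or by library size only, no filter, a stricter filter, a replicate block, offsets for transcript length and GC content (mgcv 1.9.3), and each library left out. Lengths, GC content and gene classes came from GENCODE M21, which is of another build than the counts, so no gene coordinates are given. Genes were matched to it by symbol only. Promoter windows are from RefSeq on GRCm38.p6. No 2 libraries of a group agreed within counting noise. The members and lists were chosen with earlier results of these data known. Genes named from a list are up to 4 called members with the lowest adjusted p, with others marked or given as neighbours or core proteins, and those named for likeness are the 3 with the highest r among genes that averaged 2 or more in log2 CPM and had neither a Gm number nor a Rik name. Some genes that these rules select are not reported here.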

Additional observations from a re-analysis of the deposited data

How the results depend on the processing

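Malat1, Meg3 and Mirg kept their direction and call in all 15 alternatives. With offsets for transcript length and GC content, 3 members were called lower and 0 higher, in place of 6 and 1, with Rian at -0.12, Kcnq1ot1 at -0.21, Snhg1 at -0.05, Epb41l4aos at 0.14 and Neat1 at 0.06. Over all genes with both properties these offsets gave 5490 calls of 16356, against 6137 without them on the same genes, an alternative added after seeing the data. Without the low-count filter Kcnq1ot1 was at -0.70 and no longer called. With each library left out in turn, the count of members called higher ranged from 0 to 1, Neat1 from -0.52 to -0.04, Kcnq1ot1 from -1.01 to -0.55 and Epb41l4aos from 0.29 to 0.38. The cause of these shifts was not tested. Of 288 counts of list members under the other settings 249 stayed within 1.5 times, and of 192 with a library left out 150 did. Counts of 0 in both fits were scored as unchanged, as for the sparse snoRNA rows, so these totals do not measure stability. Replicate numbers were not taken as pairs, since no pairing is stated. Over all tested genes the deviations of same-numbered libraries correlated at -0.012, 0.014 and 0.005, which does not describe single members. The replicate block gave 6067 calls, against 6372 without it, and the members' calls were 6 lower and 1 higher. With the block the SE was 0.10 for Malat1 and 0.15 for Kcnq1ot1, in place of 0.19 and 0.20. For Rian and Mirg it stayed at 0.05 and 0.13. The ratio of H19 to Igf2 was not computed because of zeros. Counts of H19, Igf2, Dlk1, Kcnq1 and most small RNA rows were too low for a test, and no difference was detectable for them. The reason for these low counts was not tested.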
